A study of Danio rerio with 27 samples.

Results

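Solute carriers are membrane proteins that move amino acids, fatty acids, organic ions, metals, sugars and vitamins across the plasma membrane or into organelles. The 31 genes described here are all solute carriers (symbols starting with slc) in the study's lists of self-organizing map (SOM) clusters, and all 31 have a row among the 18336 genes of the deposited expression table. The clusters were drawn by the study from these same libraries, so that the direction in which a cluster moved is not independent evidence, and 19 of the 31 genes come from cluster B, 5 from cluster H, 2 each from clusters C, E and F and 1 from cluster D. By transported substance, 11 carry or belong to families that carry amino acids, 7 fatty acids, organic anions or drugs, 4 monocarboxylates, 3 ions or metals, 3 sugars, vitamins or citrate, and 3 are carriers of mitochondria or of the Golgi and endoplasmic reticulum.

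RNA was sequenced from cells sorted from livers of adult female zebrafish of the AB background. The lines were Tg(fabp10a:dsRed) for hepatocytes (HEPs), Tg(hand2:EGFP) for hepatic stellate cells (HSCs) and Tg(kdrl:ras-mCherry) for endothelial cells (ECs). Fish received thioacetamide (TAA), a compound that the liver turns into toxic metabolites, by intraperitoneal injection at 500 mg/kg, 6 times over 2 weeks. Control fish were injected with sterile water according to the labels, and the methods also name saline. From each line 3 control reporter-positive, 3 control reporter-negative and 3 TAA reporter-positive libraries were made, 27 libraries in 9 groups, with 100000 cells sorted per library. A reporter marks the cells in which its promoter is active, so each sort holds whatever cells carried enough fluorescent protein. No label ties a library to a fish, and the methods name fewer control fish than there are control reporter-positive libraries, so the errors and p-values measure the spread between these libraries. Values are regularized logarithms (rlog) on the log2 scale, in which 1 unit is a doubling. They are not scaled to gene length, so that levels were compared between groups and not between genes.

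In the liver, hepatocytes take up amino acids, bile salts, fatty acids and drugs from the blood through carriers of these families and release glucose, ketone bodies and amino acids through others. The heavy chain CD98, encoded by slc3a2, is needed to bring several slc7 light chains to the plasma membrane and is known from proliferating cells and leukocytes. Endothelial cells and leukocytes use a partly different set of carriers.

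Marker levels of several libraries were unlike those of the cells named in their labels. The gene kdrl, whose promoter drives the EC reporter and which encodes a receptor of vascular endothelial growth factor, had values of 12.74, 12.78 and 12.51 in control ECs and 2.05, 2.64 and 2.07 in the 3 libraries labelled EC TAA, where it was lower than in control HEPs (6.35, 6.03 and 6.16). All 17 endothelial markers that were found fell in the libraries labelled EC TAA, with a mean level of 0.50 to 0.96 against 7.91 to 8.28 in control ECs. All 23 hepatocyte markers rose there, with a mean of 12.59 to 13.11 against 7.91 to 9.05 in control ECs, and above the 11.71 to 12.23 of control HEPs. Of 12 leukocyte markers 11 fell, from between 7.03 and 7.12 to between 1.04 and 1.45. The paper describes the fall of vascular genes in TAA-treated ECs as a loss of their angiogenic phenotype. It also reports lower accessibility at the kdrl promoter. The cause of these marker levels was not tested here. Since the 3 libraries were alike, no value for TAA-treated ECs can be had without them, and they are called the libraries labelled EC TAA. The gene hand2, which drives the HSC reporter, was at -0.13, 1.39 and 0.77 in control HSCs and 2.80, 2.70 and 1.78 in TAA HSCs. The hepatocyte markers were as high in control HSCs (11.37 to 12.28) as in HEPs. The stellate marker mean was 1.09 to 2.19 in control HSCs and 1.33 to 1.46 in control HEPs. The name HSCs therefore stands here only for the libraries with that label. In the reporter-negative libraries of the HSC line, replicate 3 stood apart with a hepatocyte marker mean of 6.42 where the other libraries had 12.28 and 12.14. In sorted bulk samples fewer cells of a type and less RNA per cell cannot be told apart.

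**Figure D1:**
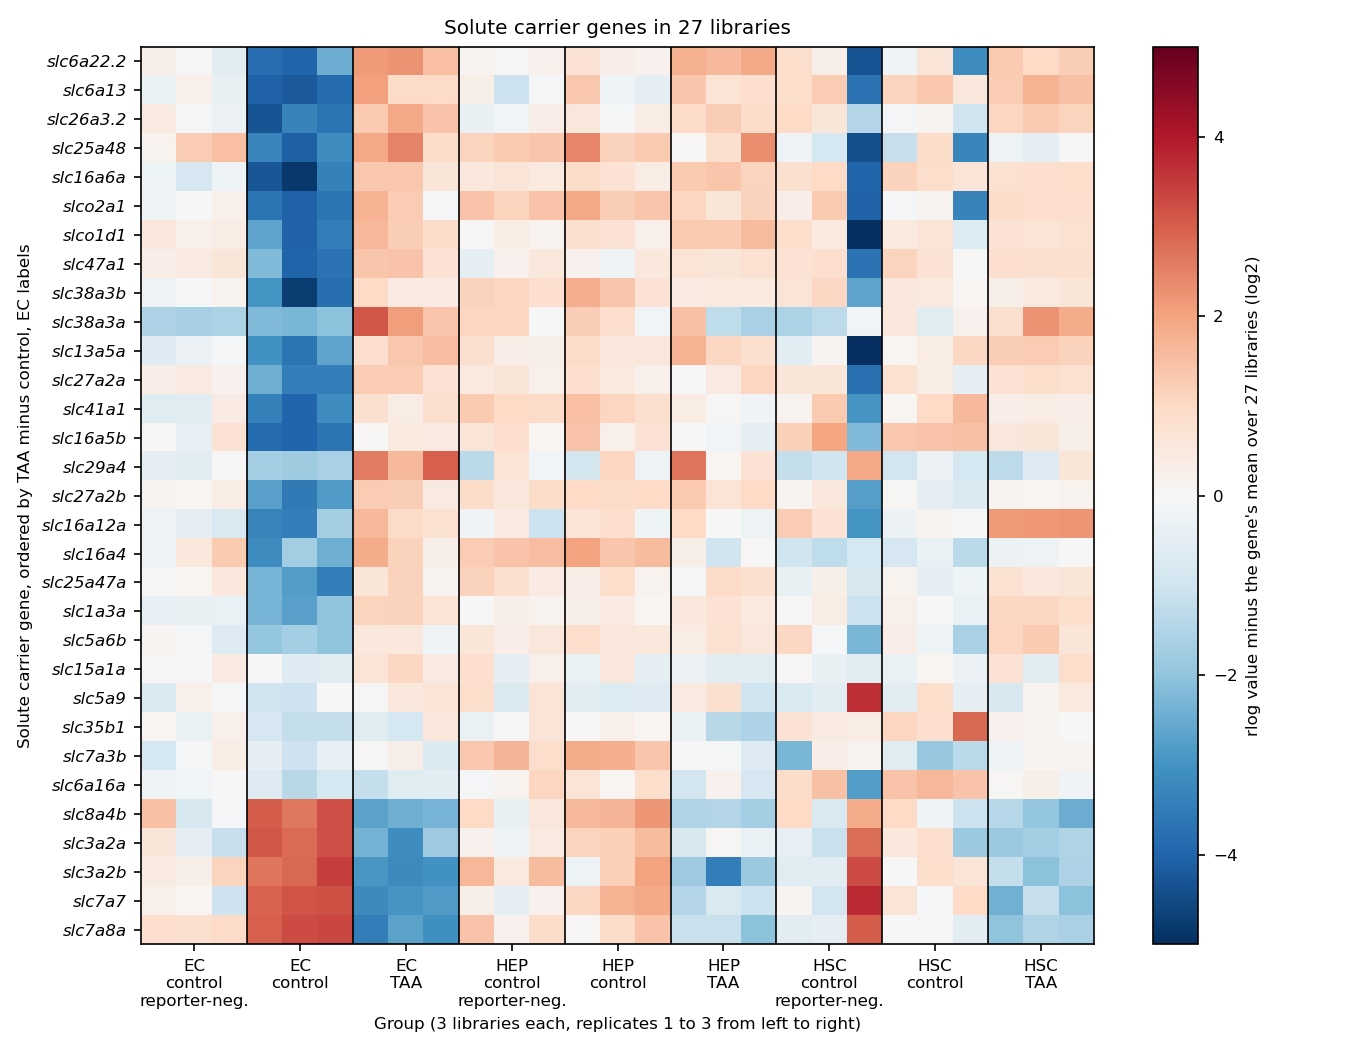
Heat map of 31 solute carrier genes (rows) in 27 libraries (columns, 3 per group). Color gives the rlog value minus that gene's average across the 27 libraries, on the log2 scale. The 3 control EC libraries stand apart from the other groups in most rows, with 5 genes at the bottom high and most others low, and replicate 3 of the reporter-negative HSC line resembles them in many rows.

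The first comparison asks how the carriers responded to TAA in cells sorted as ECs. Most of the 31 genes were higher in the libraries labelled EC TAA than in control ECs, by 1.13 to 5.38 on the log2 scale, and a group of 5 amino acid and calcium transport genes was lower by more than 5. In numbers 22 genes rose, 5 fell and 4 did not pass the threshold. By the same test 19.7% of all genes rose and 31.5% fell. The median difference of the 31 genes was 3.998, and that of all genes was -0.25. When each library was centred on its median the all-gene median became 0.32 and the share of calls that were rises went from 38.5% to 60.8%, and quantile normalization gave 52.9%. The number of falling carriers was 5 and the number of rising carriers was between 19 and 25 under these and all other alternatives that were run. The low end of 19 came from leaving out genes with a mean value under 3, which removed slc15a1a, slc29a4 and slc38a3a.

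Among the amino acid carriers 5 of 11 rose, where 19.7% of all genes rose. The largest difference was that of slc6a22.2 (ENSDARG00000001354), a member of the family of sodium- and chloride-dependent transporters, with values of 1.62, 1.44 and 2.94 in control ECs and 7.56, 7.65 and 6.92 in the libraries labelled EC TAA, a difference of 5.38 ± 0.61 (SE; limma, adjusted p = 2.89e-07). Its relative slc6a13, known in mammals as a carrier of GABA, taurine and betaine in liver, was at 0.46, 0.33 and 0.65 in control ECs and 6.55, 5.48 and 5.46 in those labelled TAA, a difference of 5.35 ± 0.41 (SE; limma, adjusted p = 1.17e-09). For both genes every control value lay below every value of the libraries labelled EC TAA. The glutamate transporter slc1a3a was at 5.54, 5.14 and 5.85 in control ECs and 8.97, 9.02 and 8.53 in those labelled TAA, and rose by 3.33. The glutamine transporters slc38a3a and slc38a3b are a pair of duplicated genes. The a copy went from -0.35, -0.44 and -0.22 to 4.93, 3.94 and 3.24, a difference of 4.37 ± 0.67 (SE; limma, adjusted p = 1.44e-05), and the b copy from 5.47, 3.73 and 4.71 to 9.46, 8.90 and 8.91, a difference of 4.45 ± 0.32 (SE; limma, adjusted p = 5.84e-10). Neither copy overlapped between the groups. The cationic amino acid transporter slc7a3b (0.52) and slc6a16a (0.17), for which no substrate is established, did not pass the threshold. The gene slc7a3b passed it with either scaling alternative and without EC TAA replicate 3.

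All 7 carriers of fatty acids, organic anions and drugs in the cluster lists rose, where 19.7% of all genes rose. The prostaglandin transporter slco2a1 had 4.08, 3.68 and 4.12 in control ECs and 9.44, 8.97 and 7.67 in the libraries labelled EC TAA, a difference of 4.73 ± 0.60 (SE; limma, adjusted p = 1.25e-06). The organic anion transporter slco1d1 rose by 4.64, slc47a1, which exports organic cations and drugs, by 4.48, and slc29a4, a carrier of monoamines and other organic cations, by 4.11. The pair slc27a2a and slc27a2b encodes proteins for the uptake and activation of long-chain fatty acids. The value of slc27a2a was 8.32, 7.33 and 7.34 in control ECs and 12.06, 12.05 and 11.50 with TAA, and that of slc27a2b 4.37, 3.57 and 4.27 in control ECs and 8.35, 8.33 and 7.53 in those labelled TAA. The differences were 4.21 and 3.998, with standard errors of 0.32 and 0.26. The peptide transporter slc15a1a had the smallest rise, 1.13 ± 0.36 (SE; limma, adjusted p = 0.0124), with all values between -0.68 and 0.998, and its call was lost without EC TAA replicate 2 (adjusted p over all alternatives 0.000485 to 0.0569).

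All 4 monocarboxylate carriers of the cluster lists rose as well, where 19.7% of all genes rose. Genes with slc16 symbols outside these lists went both ways. Their differences between the libraries labelled EC TAA and control ECs ran from -4.13 for slc16a5 (ENSDARG00000030472) to 3.98 for slc16a7. Among the 4 listed carriers the largest difference was that of slc16a6a, which in zebrafish exports ketone bodies from hepatocytes. It was at 2.08, 1.54 and 2.98 in control ECs and at 7.72, 7.73 and 6.97 in the libraries labelled EC TAA, a difference of 5.27 ± 0.29 (SE; limma, adjusted p = 2.05e-11). The rise was 4.15 for slc16a5b, 3.94 for slc16a12a, whose human counterpart carries creatine, and 3.55 for slc16a4. Of the ion carriers, the chloride and bicarbonate exchanger slc26a3.2 went from 2.12, 3.11 and 2.79 to 7.76, 8.33 and 7.85, a difference of 5.30 ± 0.29 (SE; limma, adjusted p = 1.56e-11), and the magnesium transporter slc41a1 rose by 4.15. The mitochondrial carrier slc25a48 went from 2.26, 1.46 and 2.41 to 7.50, 8.03 and 6.48, a difference of 5.29 ± 0.73 (SE; limma, adjusted p = 3.43e-06), and slc25a47a, a mitochondrial carrier known from liver, rose by 3.48. The citrate transporter slc13a5a rose by 4.35 and the biotin and pantothenate transporter slc5a6b by 2.16. The sugar transporter slc5a9 (1.103 ± 0.47 SE, limma, adjusted p = 0.0583) and slc35b1, which carries ATP into the endoplasmic reticulum (0.78 ± 0.43 SE, limma, adjusted p = 0.139), did not pass the threshold, and both passed it after either scaling alternative. For slc5a9 this was also so in a fit of only the EC groups, with a replicate block and without EC control replicate 3.

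**Figure D2:**
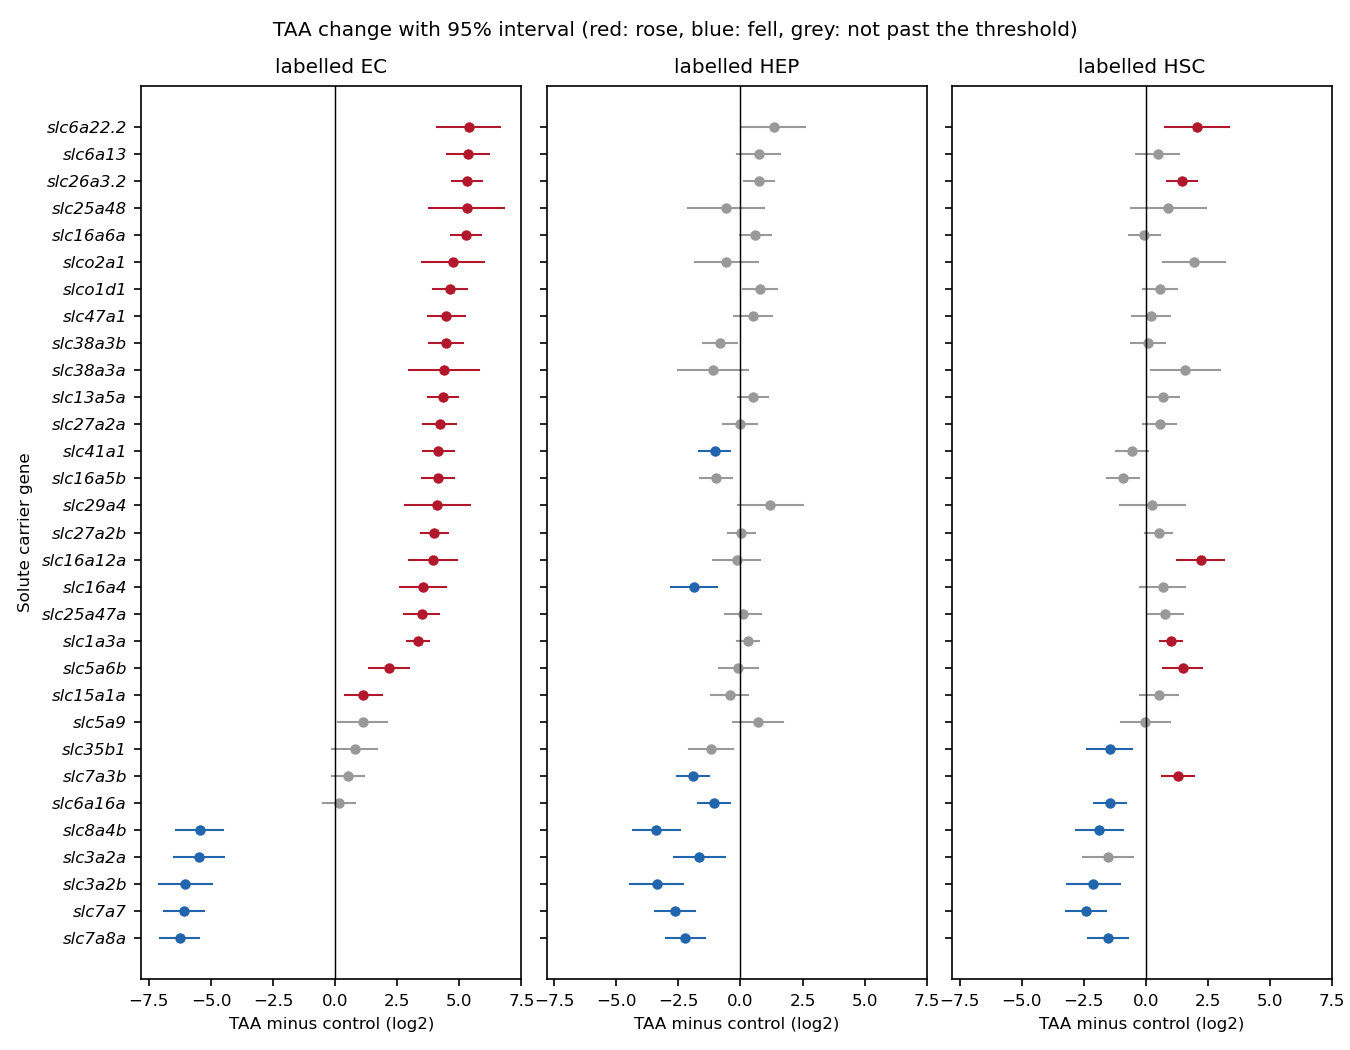
TAA minus control difference of each of the 31 genes on the log2 scale, with its 95% interval, in the libraries labelled EC, HEP and HSC (3 against 3 libraries each). Red marks genes that rose, blue genes that fell and grey those not past an adjusted p of 0.05. In the panel labelled EC, 22 genes are red and 5 blue, and in HEPs no gene is red.

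The 5 genes that fell in the libraries labelled EC TAA were all members of cluster H. Both copies of the CD98 heavy chain gene were among them. The copy slc3a2a (ENSDARG00000036427) was at 8.02, 7.75 and 8.13 in control ECs and at 2.56, 1.81 and 3.08 in the libraries labelled EC TAA, a difference of -5.48 ± 0.49 (SE; limma, adjusted p = 9.85e-09). For slc3a2b (ENSDARG00000037012) the values were 6.88, 7.08 and 7.66 in control ECs and 1.30, 1.02 and 1.17 in those labelled TAA, a difference of -6.04 ± 0.51 (SE; limma, adjusted p = 4.53e-09). Cluster H also holds 2 light chains that pair with CD98. The gene slc7a7 (ENSDARG00000055226), for the y+LAT1 light chain that exchanges cationic for neutral amino acids, went from 6.81, 6.98 and 7.04 to 0.65, 0.88 and 1.02, a difference of -6.09 ± 0.38 (SE; limma, adjusted p = 7.47e-11). The gene slc7a8a (ENSDARG00000075831), for the LAT2 light chain of neutral amino acids, went from 7.27, 7.55 and 7.61 to 0.82, 1.60 and 1.20, a difference of -6.27 ± 0.38 (SE; limma, adjusted p = 5.04e-11). Other light chains of CD98, which were looked up after the values of the 31 genes were seen, were divided. Of 5 such genes outside the clusters slc7a6 (-4.91 ± 0.53) and slc7a11 (-2.45 ± 0.49) fell, and slc7a5 (0.077 ± 0.56), slc7a8b (-0.036 ± 0.36) and slc7a10 (0.27 ± 0.40) did not pass the threshold. The sodium and calcium exchanger slc8a4b (ENSDARG00000037145) went from 6.11, 5.70 and 6.30 to 0.40, 0.61 and 0.74, a difference of -5.45 ± 0.45 (SE; limma, adjusted p = 3.78e-09). In all 5 genes the 3 control values lay above the 3 TAA values, which follows from falls of this size and is no separate result. Lack of overlap, here and elsewhere, was not counted over all genes. The mean of the 12 leukocyte markers fell in the same libraries from between 7.03 and 7.12 to between 1.04 and 1.45, and the part of leukocytes in these falls was not tested.

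**Figure D3:**
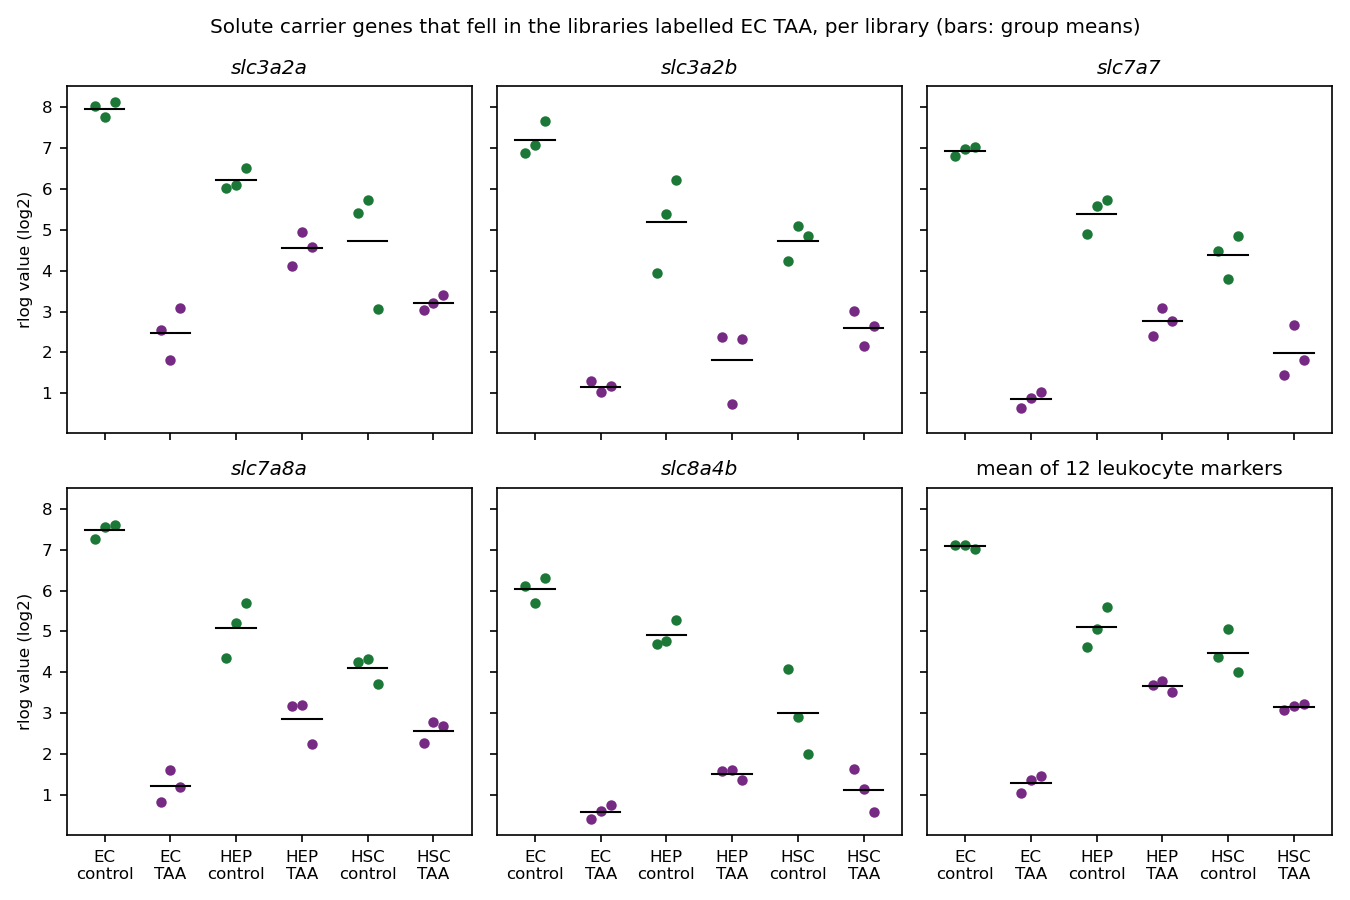
Values per library (points, rlog on the log2 scale) and group means (bars) of the 5 genes that fell in the libraries labelled EC TAA, and the mean of 12 leukocyte markers, in 6 reporter-positive groups of 3. In every panel control ECs are highest and the libraries labelled EC TAA lowest by group mean.

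Since the libraries labelled EC TAA had the hepatocyte markers at or above HEP level, the carriers were set beside those of HEPs in both conditions. In control cells the ECs were below HEPs in 24 of the 31 genes and above in 4, where 17.1% and 25.9% of all genes were lower and higher. With TAA, 1 gene was higher in the libraries labelled EC TAA than in TAA HEPs and 3 were lower, against 1.23% and 2.80% of all genes. This comparison was added after the data were seen. For the 22 genes that rose in the libraries labelled EC TAA, the EC mean minus the HEP mean had a median of -3.91 in controls, from -5.28 to -0.35. With TAA it had a median of 0.45, from -0.29 to 2.66. Above 0 were 0 of these 22 genes in controls and 18 with TAA. The 23 hepatocyte markers had medians of -3.49 and 0.66 in the same comparison, with 0 and 23 above 0. Their part in the rise of the carriers was not tested. These comparisons share the EC libraries with the TAA comparison of the EC label, so they are other views of the same values. The interval of the difference between the libraries labelled EC TAA and TAA HEPs was -0.57 to 0.52 for slc27a2b and -0.82 to 0.55 for slco1d1, 2 genes with a mean difference near 0.

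The gene above the HEP level was slc38a3a, at 4.93, 3.94 and 3.24 in the libraries labelled EC TAA and 3.32, 0.57 and 0.23 in TAA HEPs, a difference of 2.66 ± 0.67 (SE; limma, adjusted p = 0.0255). The highest TAA HEP value overlapped the lowest value of those. The 3 genes below were slc7a8a (-1.66), slc7a7 (-1.91) and slc3a2a (-2.07). No gene was higher when EC TAA replicate 1 or 2, or HEP TAA replicate 2 or 3, was left out, and 2 were higher without EC TAA replicate 3. Without HEP TAA replicate 2 only 1 gene was lower. Among all genes called here, rises made up 30.4%, and 45.1% after centring on the median.

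**Figure D4:**
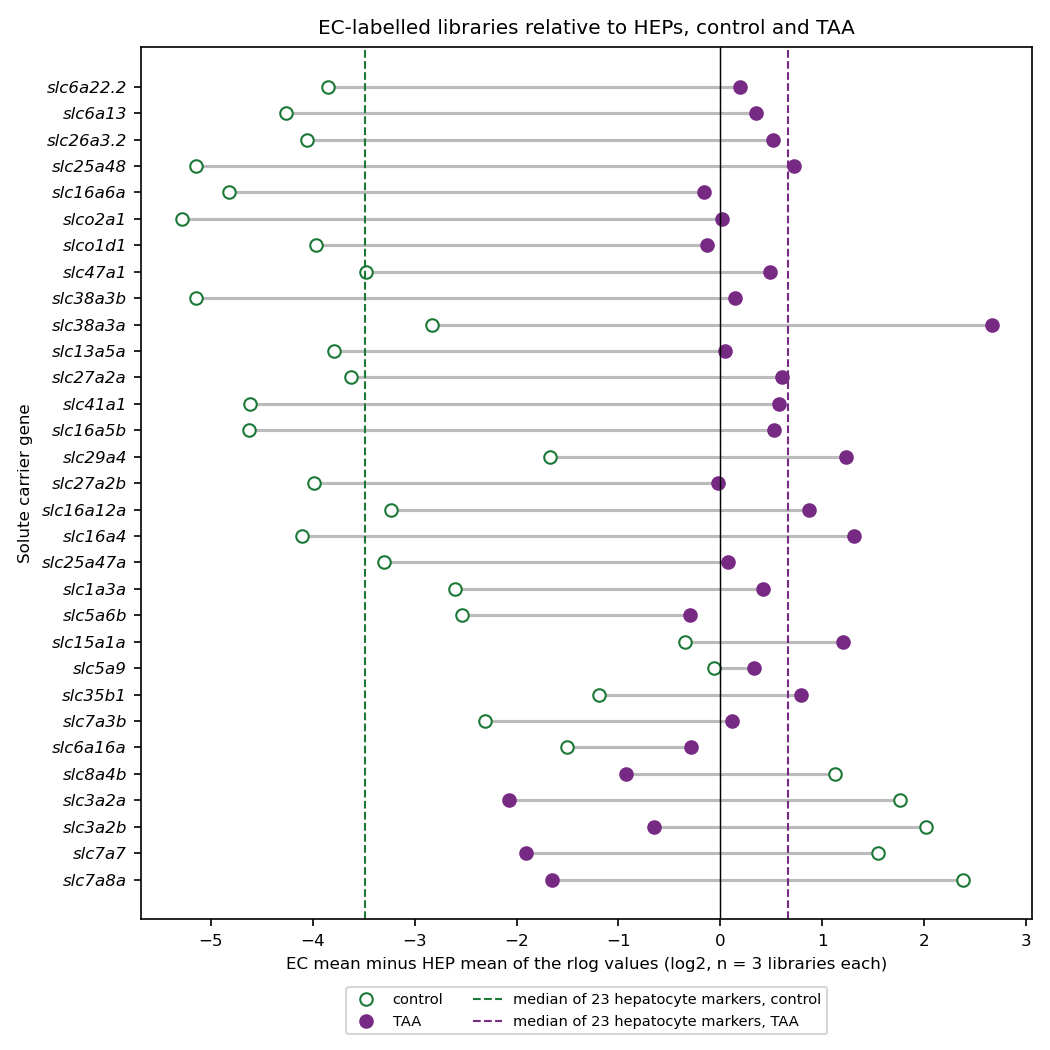
EC mean minus HEP mean of the rlog values (log2, 3 libraries per group) for each of the 31 genes, in control cells (open circles) and with TAA (filled circles, libraries labelled EC TAA). Dashed lines give the median of the 23 hepatocyte markers, -3.49 in controls and 0.66 with TAA. The 22 genes that rose in the libraries labelled EC TAA lie left of 0 in controls. With TAA they lie between -0.29 and 2.66, 18 of them above 0.

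In HEPs 9 of the 31 genes were lower in TAA than in control libraries and none was higher, while 5.27% of all genes fell and 2.13% rose. The median difference was -0.43, and that of all genes was -0.02. The 5 cluster H genes fell again. The exchanger slc8a4b was at 4.69, 4.77 and 5.27 in control HEPs and 1.58, 1.60 and 1.36 with TAA, a difference of -3.398 ± 0.45 (SE; limma, adjusted p = 0.000173). The CD98 gene slc3a2b was at 3.94, 5.39 and 6.22 in controls and 2.37, 0.73 and 2.33 with TAA (-3.37 ± 0.51 SE, limma, adjusted p = 0.000476), and its duplicate slc3a2a at 6.03, 6.09 and 6.51 in controls and 4.12, 4.95 and 4.59 with TAA (-1.65 ± 0.49 SE, limma, adjusted p = 0.0447). The 2 copies do not overlap between the conditions, and the fall of slc3a2a lost its call with no variance trend and when any 1 of the 6 libraries was left out (adjusted p over all alternatives 0.0139 to 0.161). The light chain gene slc7a7 was at 4.89, 5.57 and 5.73 in controls and 2.39, 3.09 and 2.78 with TAA, a difference of -2.64 ± 0.38 (SE; limma, adjusted p = 0.000322). Its relative slc7a8a was at 4.36, 5.22 and 5.70 in controls and 3.17, 3.19 and 2.24 with TAA, a difference of -2.23 ± 0.38 (SE; limma, adjusted p = 0.00135). Of the 12 leukocyte markers 7 fell in HEPs, with a mean of 4.63 to 5.61 in controls and 3.52 to 3.79 with TAA. Of 17 endothelial markers 3 fell, with a mean of 2.01 to 2.59 in controls and 1.09 to 1.74 with TAA, and 2 of 5 pancreas acinar markers fell, with 3.55 to 6.85 and 1.69 to 3.16. The part of these cells in the falls was not tested.

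Outside cluster H, the cationic amino acid transporter slc7a3b went from 8.36, 8.34 and 7.88 to 6.53, 6.46 and 5.87, a difference of -1.91 ± 0.31 (SE; limma, adjusted p = 0.00108), with no overlap. The monocarboxylate family gene slc16a4 went from 6.27, 5.68 and 5.88 to 4.58, 3.30 and 4.33, a difference of -1.87 ± 0.44 (SE; limma, adjusted p = 0.0124), which lost its call without HEP TAA replicate 2 (adjusted p over all alternatives 0.00984 to 0.0805). The magnesium transporter slc41a1 (-1.04 ± 0.30 SE, limma, adjusted p = 0.0408) and slc6a16a (-1.05 ± 0.31 SE, limma, adjusted p = 0.043) were near the threshold. The call of slc41a1 was lost with centring on the median, with quantile normalization, with no variance trend and without HEP TAA replicate 1, 2 or 3 or HEP control replicate 1 or 2 (adjusted p over all alternatives 0.0223 to 0.16), and that of slc6a16a in a fit of only the HEP groups, with no variance trend, with quantile normalization, with a replicate block and without HEP TAA replicate 1 or 3 or HEP control replicate 1 or 3 (0.0128 to 0.182). Of the carriers that rose in the libraries labelled EC TAA none passed the threshold as a rise here. The highest difference was that of slc6a22.2, 1.34 ± 0.61 (SE; limma, adjusted p = 0.207), which passed in a fit of only the HEP groups (adjusted p = 0.00943), and slc6a13 (0.73) passed without HEP control replicate 1. Others were 0.60 for slc16a6a, 0.73 for slc26a3.2 and 0.04 for slc27a2b. At an unadjusted p under 0.05, 15 of the 31 genes differed between TAA and control HEPs, and 21.8% of all genes did. No carrier of fatty acids, organic anions or drugs passed the threshold, where the 7 differences lay between -0.57 and 1.20.

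In the libraries labelled HSC 6 of the 31 genes rose and 6 fell with TAA, and 4.26% and 3.94% of all genes did. The counts were 3 and 3 in a fit of only the 6 HSC libraries, where slc5a6b, slc6a22.2, slc7a3b, slc7a8a, slc8a4b and slc35b1 lost their call, and 3 genes rose without HSC TAA replicate 2. The creatine carrier family gene slc16a12a was at 3.21, 3.68 and 3.52 in control HSCs and 5.63, 5.67 and 5.75 with TAA, a difference of 2.21 ± 0.45 (SE; limma, adjusted p = 0.00519). The exchanger slc26a3.2 was at 6.38, 6.55 and 5.44 in controls and 7.51, 7.74 and 7.55 with TAA (1.48 ± 0.29 SE, limma, adjusted p = 0.00371), and the glutamate transporter slc1a3a at 8.12, 7.82 and 7.51 in controls and 8.89, 8.88 and 8.75 with TAA (1.02 ± 0.21 SE, limma, adjusted p = 0.00477). The groups did not overlap in any of the 6 rising genes, and lack of overlap was not counted over all genes. The calls of slc16a12a, slc26a3.2 and slc1a3a were kept in every alternative that was run. The other rises were less firm. The vitamin transporter slc5a6b had 4.99, 4.45 and 3.04 in controls and 5.72, 5.96 and 5.24 with TAA, a difference of 1.48 ± 0.38 (SE; limma, adjusted p = 0.0206), and its call was lost without HSC TAA replicate 1 or 2 or HSC control replicate 3. For slc6a22.2 the values were 5.22, 6.07 and 2.26 in controls and 6.71, 6.40 and 6.64 with TAA, a difference of 2.07 ± 0.61 (SE; limma, adjusted p = 0.0425) that was lost with no variance trend and without HSC TAA replicate 1, 2 or 3 or HSC control replicate 3. In both genes the value of HSC control replicate 3 was well below the others, and without it the difference of slc5a6b was 0.925 and that of slc6a22.2 0.94. The cationic amino acid transporter slc7a3b was at 5.92, 4.63 and 5.14 in controls and 6.28, 6.66 and 6.64 with TAA, a difference of 1.30 ± 0.31 (SE; limma, adjusted p = 0.0148), lost without HSC TAA replicate 2 or 3 or HSC control replicate 2.

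Of the 6 genes that fell in HSCs, 4 were cluster H genes. The light chain gene slc7a7 was at 4.49, 3.79 and 4.85 in controls and 1.44, 2.67 and 1.81 with TAA, a difference of -2.41 ± 0.38 (SE; limma, adjusted p = 0.000608) that kept its call in every alternative that was run. The heavy chain gene slc3a2b was at 4.24, 5.09 and 4.84 in controls and 3.01, 2.15 and 2.65 with TAA (-2.12 ± 0.51 SE, limma, adjusted p = 0.014), and lost its call without HSC TAA replicate 2. The other light chain gene slc7a8a was at 4.26, 4.34 and 3.71 in controls and 2.27, 2.78 and 2.68 with TAA (-1.53 ± 0.38 SE, limma, adjusted p = 0.0167), and lost it without HSC TAA replicate 1. The groups did not overlap in these 3 genes, nor in slc8a4b. The exchanger slc8a4b was at 4.09, 2.90 and 2.00 in controls and 1.64, 1.14 and 0.58 with TAA (-1.88 ± 0.45 SE, limma, adjusted p = 0.0143), and lost it without HSC TAA replicate 3 or HSC control replicate 1. For slc3a2a the values 5.42, 5.73 and 3.06 in controls and 3.03, 3.21 and 3.397 with TAA overlapped, and the difference of -1.52 ± 0.49 (SE; limma, adjusted p = 0.0596) did not pass the threshold. It was -2.36 and past it without HSC control replicate 3, which was low, and it passed with either scaling alternative. Of the 12 leukocyte markers 8 fell in HSCs, from a mean between 3.999 and 5.07 to between 3.08 and 3.22, and 7 of 11 stellate markers rose, from between 1.09 and 2.19 to between 3.44 and 3.84. The part of these cells in the changes was not tested.

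The remaining falls in HSCs belonged to cluster E. The gene slc6a16a was at 6.93, 7.16 and 6.94 in controls and 5.56, 5.79 and 5.34 with TAA, without overlap, a difference of -1.45 ± 0.31 (SE; limma, adjusted p = 0.0067). The endoplasmic reticulum carrier slc35b1 was at 7.50, 7.24 and 9.27 in controls and 6.65, 6.55 and 6.45 with TAA, also without overlap, a difference of -1.45 ± 0.43 (SE; limma, adjusted p = 0.0422). Its value in HSC control replicate 3 was far above the others, and the call was lost without that library, where the difference was -0.82, without HSC TAA replicate 1, 2 or 3, with no variance trend and with quantile normalization. The prostaglandin transporter slco2a1 (7.65, 7.87 and 4.40 in controls, 8.63, 8.54 and 8.57 with TAA) had a difference of 1.94 ± 0.60 (SE; limma, adjusted p = 0.0519), just outside the threshold. It passed with centring on the median, a replicate block, a mean value of at least 3 or without HSC control replicate 1 or 2, and was 0.82 without the low HSC control replicate 3.

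Laid side by side, 15 of the 31 genes rose in the libraries labelled EC TAA and passed the threshold in neither HEPs nor HSCs. A further 5 rose there and in HSCs, and 4 fell in all 3 comparisons. These patterns were not counted over all genes. Only 2.13% of all genes rose in HEPs and 4.26% in HSCs, so the counts are not read as particular to these carriers. Whether the differences between TAA and control are unlike each other was tested as an interaction. The difference between the libraries labelled EC TAA and control ECs was unlike the response of HEPs in 30 of 31 genes, where 40.9% of all genes differed, and unlike that of HSCs in 27, where 43.1% did. Since the libraries labelled EC TAA lack endothelial markers, these counts cannot be told apart from a change in the cells that were sorted. Rises made up 39.1% and 39.6% of the all-gene calls in these 2 comparisons, and 60.1% and 62.6% after centring each library on its median. The exception in the first was slc5a9, with values between -0.74 and 1.20 in the 18 reporter-positive libraries, which passed the threshold in none of the 3 comparisons. Opposite calls in the libraries labelled EC TAA and in HEPs were made for slc16a4 and slc41a1, whose differences were apart by 5.42 ± 0.62 (SE; limma, adjusted p = 1.08e-06) and 5.19 ± 0.43 (SE; limma, adjusted p = 2.97e-08). Both falls in HEPs lost their call when single libraries were left out, and that of slc41a1 also with either scaling alternative. The responses of HSCs and HEPs differed in 2 of 31 genes, where 2.86% of all genes did. For slc7a3b, which rose in HSCs and fell in HEPs, the difference was 3.20 ± 0.44 (SE; limma, adjusted p = 0.000362). For slc16a4 it was 2.55 ± 0.62 (SE; limma, adjusted p = 0.0282). This count was 1 without HSC TAA replicate 1, 2 or 3, HSC control replicate 3, HEP TAA replicate 2 or HEP control replicate 1, and 4 without HEP TAA replicate 1.

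A further question was how the carriers differ between the sorted groups without TAA. Control ECs were lower than control HSCs in 22 genes and higher in 5, where 18.4% and 27.4% of all genes were lower and higher. Rises made up 60.3% of all-gene calls for ECs against HEPs and 59.8% for ECs against HSCs, and 42.0% and 37.8% after centring on the median. The largest gap between control ECs and HEPs was that of slco2a1, at 4.08, 3.68 and 4.12 in ECs and 9.67, 8.94 and 9.12 in HEPs, a difference of -5.28 ± 0.68 (SE; limma, adjusted p = 4.21e-05). The genes above HEP level in control ECs were slc7a8a (2.38), slc3a2b (2.02), slc3a2a (1.76) and slc7a7 (1.55), the heavy chain copies and their light chains, and the calcium exchanger slc8a4b (1.12 ± 0.48 SE, limma, adjusted p = 0.0746) did not pass the threshold. Against control HSCs all 5 were higher in control ECs, by 2.48 to 3.37. In control ECs the leukocyte markers were also highest, with a mean of 7.03 to 7.12 against 4.63 to 5.61 in control HEPs and 3.999 to 5.07 in control HSCs, and their part was not tested.

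Control HEPs and control HSCs were close in their markers. The stellate marker mean was 1.09 to 2.19 in HSCs and 1.33 to 1.46 in HEPs. None of 11 stellate and none of 23 hepatocyte markers passed the threshold, where few of all genes did (1.79% higher in HEPs, 0.829% lower). At an unadjusted p under 0.05, 2 stellate markers and 1 hepatocyte marker differed, where 17.3% of all genes did. These counts do not set the markers apart from other genes. Since the marker levels were alike, the comparison is between the libraries of these labels. Control HEPs were higher than control HSCs in 3 genes and lower in none, where 1.79% of all genes were higher and 0.829% lower. At an unadjusted p under 0.05, 13 of the 31 genes differed, where 17.3% of all genes did. The cationic amino acid transporter slc7a3b was at 8.36, 8.34 and 7.88 in HEPs and 5.92, 4.63 and 5.14 in HSCs, a difference of 2.96 ± 0.34 (SE; limma, adjusted p = 0.00102). The other genes were slc16a4 (2.52 ± 0.48 SE, limma, adjusted p = 0.0179) and slc27a2b (1.36 ± 0.30 SE, limma, adjusted p = 0.0348). Only 1 gene was called without HEP control replicate 1, 2 or 3. The share of rises among all-gene calls was 68.4%, and 52.2% after centring. With TAA the value of slc7a3b in HSCs (6.28, 6.66 and 6.64) overlapped that in HEPs (6.53, 6.46 and 5.87).

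Cells without reporter fluorescence, from the same lines, were mostly high in hepatocyte markers. Their hepatocyte marker mean was 11.75 to 11.89 in the HEP line and 11.82 to 12.04 in the EC line. In the HSC line it was 12.28, 12.14 and 6.42. Of 23 hepatocyte markers 21 were lower in reporter-positive than in reporter-negative cells of the EC line, and 0 differed in the HEP line. The part of hepatocytes in the differences of the carriers was not tested. In the EC line 5 genes were higher and 19 lower in control reporter-positive than in reporter-negative cells, 24 of 31, where 29.3% of all genes differed. The 5 higher genes were those of cluster H. For slc7a7 the values were 6.81, 6.98 and 7.04 in reporter-positive and 4.101, 3.96 and 2.81 in reporter-negative cells, and for slc26a3.2 2.12, 3.11 and 2.79 in reporter-positive and 6.89, 6.38 and 6.13 in reporter-negative cells. The libraries labelled EC TAA lay below the reporter-negative control cells in slc7a7 and above them in slc26a3.2. In the HEP line no gene differed, where 0.534% of all genes did, and 1 of the 31 had an unadjusted p under 0.05, where 10.2% of all genes had. In a fit of only the HEP line 2 of the 31 genes and 4.67% of all genes differed, and with the replicate block, which pairs libraries of the same number, none and 0.142%. In the HSC line no gene differed either, where 0% of all genes did, and 4 of the 31 had an unadjusted p under 0.05, where 10.7% of all genes had. The count in the HSC line was also 0 without reporter-negative replicate 3, the library that stood apart. In that library slco1d1 was at 3.59 where the other 2 had 9.85 and 9.46, and slc7a7 was at 7.58 where they had 3.99 and 2.87.

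The 31 genes are a selection of those solute carriers that varied. The table holds 287 other genes taken by a symbol starting with slc, and some, such as slc7a6os, need not be carriers. Of these 287 genes 83 rose and 86 fell in the libraries labelled EC TAA, 4 rose and 21 fell in HEPs, and 15 rose and 9 fell in HSCs. These are 28.9% and 30.0% where 19.7% and 31.5% of all genes did, 1.39% and 7.32% against 2.13% and 5.27%, and 5.23% and 3.14% against 4.26% and 3.94%. Their median difference in the libraries labelled EC TAA was 0.06, against 3.998 for the 31 genes. The largest rises there among them were those of the sugar transporter slc2a5 (4.66 ± 0.42), the mitochondrial carrier slc25a29 (4.52 ± 0.37) and the organic cation transporter slc22a3 (4.30 ± 0.47). The largest falls were those of slc44a2, a choline transporter-like gene (-7.00 ± 0.53), the sodium, potassium and chloride cotransporter slc12a2 (-6.91 ± 0.43) and the serotonin transporter slc6a4 (-6.44 ± 0.54).

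**Figure D5:**
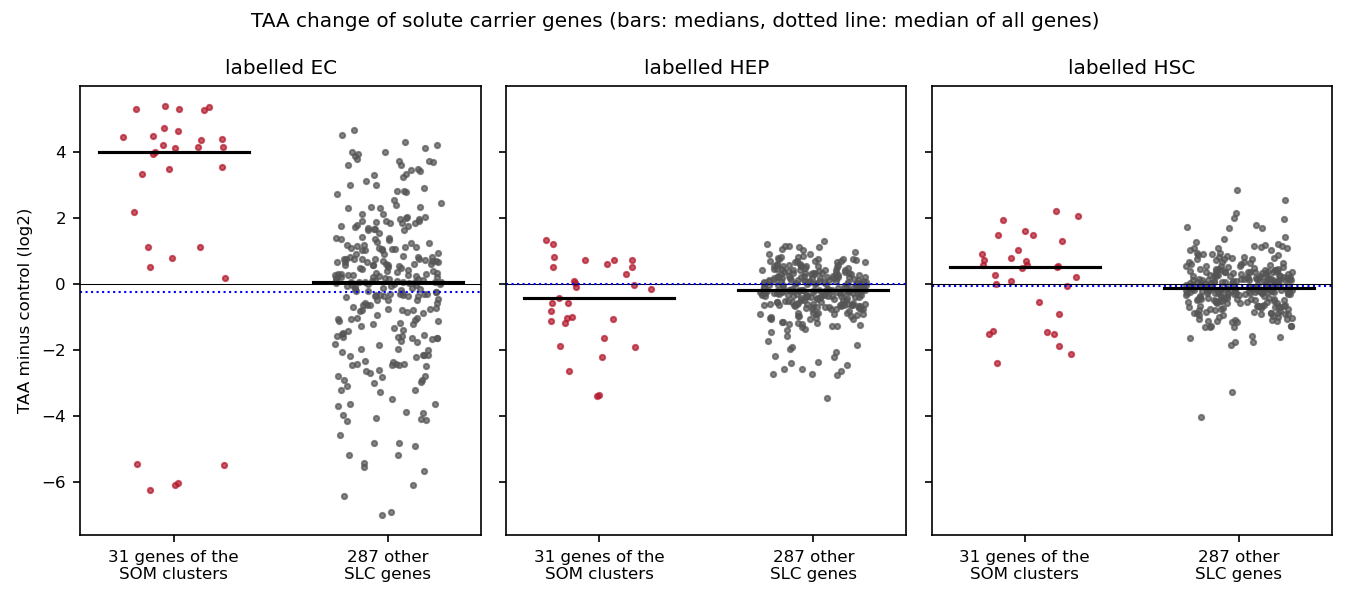
TAA minus control difference on the log2 scale of the 31 solute carrier genes of the SOM clusters and of 287 other genes whose symbol starts with slc, in the libraries labelled EC, HEP and HSC. Points are genes, bars medians and the dotted line is the median of all genes. In the panel labelled EC the 31 genes lie in a high and a low group with a median of 3.998, and the others spread around 0.06.

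Other genes of membrane transport were counted from lists. Beside the counts below, the shares of all genes that rose and fell were 19.7% and 31.5% in the libraries labelled EC TAA. They were 2.13% and 5.27% in HEPs and 4.26% and 3.94% in HSCs. Of 10 ATP-driven ABC transporters found, 5 rose and 4 fell in the libraries labelled EC TAA, among them the canalicular exporter abcc2 (3.81 ± 0.20) and abcc3 (-6.97 ± 0.30), an exporter of the basolateral membrane in mammals. In HEPs 0 rose and 3 fell, and in HSCs 1 rose and 2 fell. Of bsg, a chaperone of monocarboxylate carriers, and atp1b3b, a sodium pump subunit, bsg rose in the libraries labelled EC TAA by 0.64 and neither passed the threshold in HEPs or HSCs. The amino acid response induces amino acid carriers when amino acids are short. Of its 12 genes 3 rose and 4 fell in the libraries labelled EC TAA. These are 25% and 33.3%, where 19.7% and 31.5% of all genes did. In HEPs 0 rose and 5 fell, which is 41.7%, where 5.27% of all genes fell. In HSCs 0 passed, and 5 of the 12 had an unadjusted p under 0.05, where 23.9% of all genes had. The 5 that fell in HEPs were atf3 (-2.16 ± 0.36), trib3 (-1.84 ± 0.31), chac1 (-1.81 ± 0.29), ddit3 (-1.49 ± 0.20) and atf4b (-0.62 ± 0.17). Of the remaining cell lists, 6 erythrocyte markers had 1 rise and 3 falls in the libraries labelled EC TAA, 5 cholangiocyte markers 2 falls, and 5 pancreas acinar markers none, with 2 acinar falls in HEPs and 3 in HSCs.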

How the data were processed

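Per the submitters' processing notes and the paper's methods, reads went through FastQC 0.11.8 for quality and cutadapt 1.18 for trimming, and the authors aligned them to GRCz11 with STAR 2.6 and handled the alignments with SAMtools 1.9. The deposited values are log2 values, the regularized logarithm of DESeq2, for 18336 genes in 27 libraries, from -2.62 to 22.57. The tool that counted reads per gene and the annotation release are not given in the sources used here. The transformation corrects for library size and pulls differences of weakly expressed genes together, so changes of low genes are understated. Counts cannot be recovered from it and the depth of the libraries is not known from the table, so no count model was used and the precision of a value is given by the spread between libraries.

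Every library took its group and replicate number from its labels, and no 2 libraries were identical. The members are all identifiers in the study's SOM cluster lists whose symbol starts with slc and that are in the table. Members and gene lists were chosen with earlier results of these data known. By the naming rule all members are named. Values per library were given at least for up to 6 members with the largest rise and 6 with the largest fall past the threshold in each TAA comparison and for pairs of duplicated genes. They were also given for some other members, such as slc1a3a in the libraries labelled EC and slco2a1 in HSCs. Of the other solute carriers, 6 are named for the largest changes in the libraries labelled EC TAA. Light chain genes of CD98 outside the clusters are named too, and were looked up after the values of the members were seen. Other solute carriers were found by symbol in a reference table of gene names, which matched 17233 of the 18336 identifiers. Of the marker lists, 23 of 25 hepatocyte, 17 of 20 endothelial, 11 of 18 stellate, 12 of 15 leukocyte, 6 of 8 erythrocyte, 5 of 7 cholangiocyte and 5 of 9 pancreas acinar genes were found, and of the other lists 10 of 15 ABC transporters, 2 of 8 genes for bsg and the sodium pump and 12 of 12 amino acid response genes.

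Groups were compared with limma 3.58.1 in R 4.3.3 (lmFit on group means, contrasts.fit, eBayes with trend=TRUE, no filter), and adjusted p-values (Benjamini-Hochberg, over the whole table) were held against 0.05, after the script was tested on simulated data. TAA responses and interactions were fitted over the 18 reporter-positive libraries, cell types over the control reporter-positive libraries, and reporter-positive against reporter-negative cells over the 18 control libraries. Intervals are 95% intervals. Alternatives were a fit of only the groups compared, no variance trend, leaving out genes whose mean value was under 3, centring on the median, quantile normalization, an absolute difference of at least 1, a replicate block and leaving out each library. Figures were drawn with Python 3.11.15 and matplotlib 3.10.9. Same-numbered reporter-positive and reporter-negative control libraries deviated together weakly in the EC line (correlations across genes 0.19, 0.13 and 0.15) and the HEP line (0.11, 0.12 and 0.16). These were above the minimum of 0.1 set for pairing. In the HSC line the correlations were 0.14, -0.060 and 0.00078. No label says that the numbers pair libraries, and the main fits did not pair them. The ATAC-seq data and sequences of the genes were not analysed here.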

Additional observations from a re-analysis of the deposited data

Results flagged for a closer look

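The difference between TAA and control was unlike between the libraries labelled EC and HEPs in 30 of the 31 genes, where 40.9% of all genes differed, and between those labelled EC and HSCs in 27, where 43.1% did, by the interaction test in limma. The 3 libraries labelled EC TAA lacked endothelial markers and had hepatocyte markers at or above HEP level. A response of endothelial cells therefore cannot be told apart from a change in the cells that were sorted. Opposite calls were made in the libraries labelled EC TAA and in HEPs for slc16a4, with differences 5.42 apart on the log2 scale, and for slc41a1, with 5.19. The fall of slc41a1 in HEPs lost its call in 8 of 13 alternatives, centring on the median and quantile normalization among them, and that of slc16a4 without HEP TAA replicate 2. Between HSCs and HEPs the response differed in 2 of the 31 genes, where 2.86% of all genes differed. One of them was slc7a3b, which rose in HSCs and fell in HEPs, with responses that differed by 3.20. Its control mean was 8.19 in HEPs and 5.23 in HSCs, and with TAA the means were 6.28 and 6.53. The hepatocyte marker mean was 11.37 to 12.28 in control HSCs, 12.05 to 12.11 in TAA HSCs and 11.71 to 12.23 in control HEPs. None of 11 stellate markers differed between control HSCs and control HEPs, where 1.79% of all genes were higher in HEPs and 0.829% lower. Their mean was 1.09 to 2.19 in control HSCs and 1.33 to 1.46 in control HEPs, so the comparison is between the libraries of these labels. The rise of slc7a3b in HSCs lost its call in 4 of 13 alternatives.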

How the results depend on the processing

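The 22 rising and 5 falling carriers in the libraries labelled EC, and the counts of differences of these libraries from HEPs and HSCs in controls and in response, stayed within 1.5 times their counts in every alternative, as did the 9 falling carriers in HEPs. With only the groups compared in the fit, 1 carrier rose in HEPs, 3 rose and 3 fell in HSCs, and 2 differed between reporter-positive and reporter-negative cells of the HEP line, where the count over all genes was 856 instead of 98 and was 26 with the replicate block. Without genes whose mean value was under 3, 5 carriers were higher in control HEPs than in control HSCs and 0 were higher in the libraries labelled EC TAA than in TAA HEPs. That 0 follows from the filter, which removed slc38a3a, the only gene called higher. The count was 2 with centring on the median and 2 with quantile normalization. Leaving out each library in turn, 0 to 1 carriers rose in HEPs, 3 to 7 rose in HSCs, 1 to 4 differed in response between HSCs and HEPs, 1 to 4 were higher in control HEPs than HSCs, 0 to 2 were higher and 1 to 3 lower in the libraries labelled EC TAA than in TAA HEPs. The causes of the other shifts were not tested. Signs that turned belonged to differences not past the threshold. With quantile normalization they were slc27a2a in HEPs (0.24) and slc5a9 in HSCs (0.17). When single libraries were left out they were slc6a16a (-0.041 to 0.37) in the libraries labelled EC, slc16a12a (-0.53 to 0.090), slc27a2b (-0.12 to 0.19), slc25a47a (-0.11 to 0.41), slc5a6b (-0.19 to 0.025) and slc27a2a (-0.33 to 0.23) in HEPs, and slc29a4 (-0.27 to 0.68), slc25a48 (-0.14 to 1.94), slc38a3b (-0.047 to 0.18), slc16a6a (-0.18 to 0.075), slc47a1 (-0.10 to 0.45) and slc5a9 (-0.29 to 0.45) in HSCs. With a replicate block 23 carriers rose and 5 fell in the libraries labelled EC TAA, 8 fell in HEPs, 7 rose and 6 fell in HSCs, and 24 differed between reporter-positive and reporter-negative cells of the EC line, and no count moved by over 1.5 times. TAA and control libraries with the same number did not deviate together (correlations from -0.04 to 0.07), so the block there joins libraries that share only a number. The depth of the libraries is not known, and changes of carriers with values near 0, such as slc15a1a and slc5a9, are limited by the shrinkage of the transformation.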
